A study of Homo sapiens with 2 samples.

Results

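The genes described here are 36 enzymes of purine and pyrimidine nucleotide synthesis, taken by gene name from a table of 50868 genes measured in MOLM-13 cells, a human acute myeloid leukemia (AML) cell line. They were placed in 5 groups: 12 genes of purine synthesis, 5 of pyrimidine synthesis, 7 of deoxynucleotide production, 8 of salvage, and 4 nucleotide kinases that serve several routes. The samples were 1 library from cells with an empty vector (Vector) and 1 library from cells labelled as overexpressing UNC5B (OE-UNC5B). The series was made to measure genes of adhesion and proliferation after UNC5B was raised in AML cells, and proliferating cells need nucleotides for RNA and DNA. Per the study's methods, the construct was delivered by lentivirus under a CMV promoter together with a FLAG tag and mCherry, and cells were selected with puromycin, so both libraries are bulk RNA of a selected culture.

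Cells make purines step by step on a ribose phosphate, and both AMP and GMP are drawn from one common intermediate, IMP. Pyrimidines are built as a ring first and joined to the ribose phosphate later, which gives UMP and from it CTP. Ribonucleotide reductase then turns ribonucleotides into the deoxynucleotides that DNA synthesis uses, and salvage enzymes return free bases and nucleosides to the pool. Several deoxynucleotide enzymes are known to be made mainly in cells that replicate DNA, and cytarabine, a mainstay of AML therapy, is a nucleoside that enters through the same transporters and kinases.

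Depth was 13715566 counted reads for Vector against 15637137 for OE-UNC5B. UNC5B itself, on chromosome 10, had a count of 0 in both libraries, which allows levels of up to 0.222 and 0.189 CPM (CPM is counts per 1000000 scaled reads, taken at a floor of 3 reads). The overexpression could therefore not be seen in these counts, every direction below rests on the labels, and the second sample is called the library labelled OE-UNC5B. Of the 12 myeloid leukemia markers examined, KIT was at or under 3 reads in both libraries, and the other 11 had log2 fold changes with a median of 0.01, 6 of them above 0 and 5 below. MPO and LYZ, genes of myeloid granules, were 2.55-fold and 2.57-fold lower in the library labelled OE-UNC5B, and MEIS1 and PTPRC were 1.86-fold and 1.65-fold higher. Among the surface markers, CD33 had 1775 and 2299 reads and FLT3 4067 and 6395, at 0.14 and 0.42 on the log2 scale. The 6 epithelial kidney markers summed to 5 reads in Vector against 2 reads in the other library, the 3 erythroid markers to 14 and 8 reads, the 5 fibroblast markers to 31 and 11 reads, and the 5 lymphocyte markers to 72 and 114 reads, nearly all from CD3D. Of the 7 endothelial markers, CDH5, KDR, TEK and CLDN5 were at 0 in both libraries, and PECAM1, which myeloid cells also carry, held nearly all of the 1631 and 1476 reads.

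All 36 nucleotide genes were measured well. Each had at least 385 reads over both libraries and at least 11.9 CPM in each, so all of them passed the minimum of 10 reads that 15384 genes of the table passed. Fold changes are on the log2 scale, from counts scaled with edgeR's TMM factors and with 0.5 reads added. Because each group was a single library, none of the differences could be checked against replicates or tested between conditions. The intervals given are 95% Clopper-Pearson intervals of the reads, which cover counting error only and not the spread between cultures.

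Nucleotide synthesis genes were, as a list, slightly lower in the library labelled OE-UNC5B, with a median log2 fold change of -0.23 against -0.0069 for all tested genes. Deoxynucleotide genes had a median of -0.55, salvage genes -0.37, the nucleotide kinases -0.28, pyrimidine genes -0.17 and purine genes -0.06, the last at -0.02 with library totals. By a fold of at least 1.5, 6 of the 36 genes were lower, where 12.5% of all tested genes were, and 1 was higher, where 12.9% of all tested genes were. The 6 lower genes were NME1, TK1, RRM2, DCTD, TYMS and PNP, and the higher gene was PAICS. By a fold of at least 2, NME1 alone was lower (4.79% of all tested genes) and 0 genes were higher (5.15% of all tested genes).

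These backgrounds include many genes with few reads, whose folds scatter more. Among the 8857 tested genes with at least 385 reads, 7.09% were lower by 1.5-fold and 7.85% were higher. At the same depth, the interval lay wholly below no change for 21 of the 36 nucleotide genes, against 35.2% of such genes, and wholly above it for 6 of them, against 33.5%. For the other 9 the interval included no change. The nucleotide genes had a median of 3231 reads over both libraries and the comparison genes 1494 reads, so their intervals were also narrower. With library totals in place of TMM, TYMS and PNP were just short of 1.5-fold and 4 lower genes were left (NME1, TK1, RRM2 and DCTD).

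By the coordinates of the deposited table (GRCh38), the 7 genes past 1.5-fold lie far apart. PAICS is at chr4:56435741-56464579 on the plus strand, and its deposited FPKM was 18.7 for Vector and 32.4 for the other library. NME1, at chr17:51153536-51162428 on the plus strand, had an FPKM of 23.8 and 11.7, and TK1, at chr17:78174075-78187233 on the minus strand, 31.2 and 18.4. RRM2, at chr2:10122328-10131419 on the plus strand, had an FPKM of 22.7 and 14.2. TYMS, at chr18:657604-673578 on the plus strand, had an FPKM of 41.6 and 27.7. PNP, at chr14:20468954-20477094 on the plus strand, had an FPKM of 22.5 and 15.1, and DCTD, at chr4:182890060-182917936 on the minus strand, 6.86 and 4.52. The FPKM values gave the same order of both libraries for each of the 7 genes. They are the same reads divided by length and library total, so they are not a second measure.

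**Figure D1:**
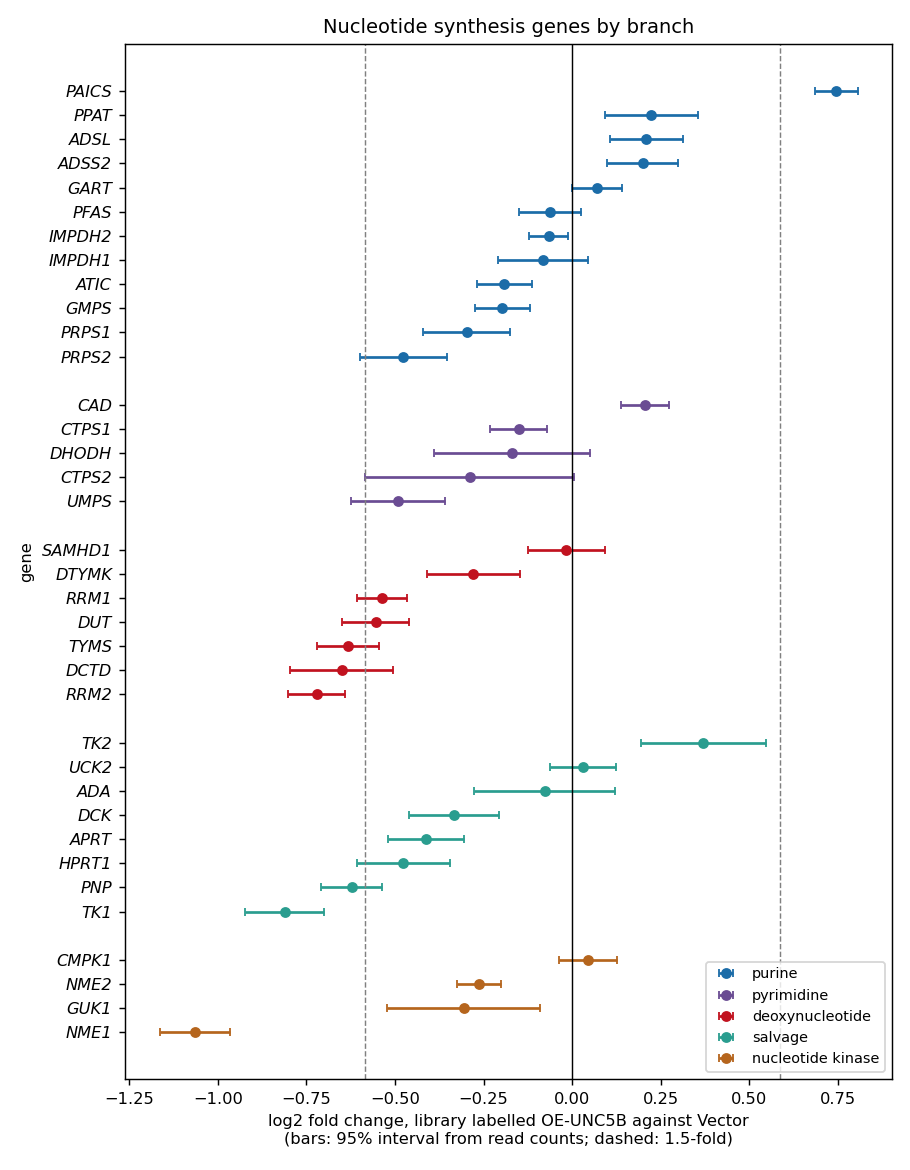
Log2 fold change of each of the 36 genes (x axis, library labelled OE-UNC5B against Vector) by branch, with 95% intervals from the reads and dashed lines at 1.5-fold. PAICS lies to the right of the dashed lines, 6 genes lie to their left, and NME1 is lowest at -1.06.

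Deoxynucleotide production had the lowest median of the 5 branches. All 7 genes had values below 0, as did 51.0% of genes of the same depth, and the intervals of 6 lay wholly below no change, as did 35.2% of those genes. The 7 genes together had 14266 reads in Vector against 11698 in the library labelled OE-UNC5B. Scaled to library size this was 1058 against 736 CPM, a log2 fold change of -0.52 for the sum (95% interval -0.56 to -0.49). RRM2, the small subunit of ribonucleotide reductase whose amount follows S phase, had 3004 reads in Vector against 2148 in the library labelled OE-UNC5B. That is a 1.65-fold lower level, or -0.72 on the log2 scale (interval -0.80 to -0.64). RRM1, the large subunit of the same enzyme, had 3581 and 2909 reads, a log2 fold change of -0.54 (interval -0.61 to -0.47). Both subunits were thus lower, RRM2 more so than RRM1.

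TYMS, thymidylate synthase, which makes dTMP from dUMP and is the target of fluorouracil, had 2494 reads in Vector against 1896 reads in the library labelled OE-UNC5B. Its level was 1.55-fold lower, with a log2 fold change of -0.63 (interval -0.72 to -0.55). DCTD, the dCMP deaminase that supplies dUMP to TYMS, had 915 and 687 reads and was 1.57-fold lower, at -0.65 on the log2 scale (interval -0.80 to -0.51). DUT, the dUTPase that keeps uracil out of DNA and also yields dUMP, had 2030 and 1629 reads. Its log2 fold change of -0.55 (interval -0.65 to -0.46) lay just inside the 1.5-fold lines, next to that of RRM1. The genes on the path from dCMP and dUTP to dTMP were therefore lower by similar amounts.

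DTYMK, the kinase that adds the next phosphate to dTMP, had 949 and 922 reads, a log2 fold change of -0.28 (interval -0.41 to -0.15). SAMHD1, which breaks deoxynucleoside triphosphates down and so works against the rest of the branch, had 1293 and 1507 reads. Its log2 fold change was -0.02 (interval -0.12 to 0.09), and its sign turned with library totals, DESeq2 size factors and both FPKM settings. SAMHD1 was the single gene of the 36 whose sign turned under the 7 alternatives that used the counts or FPKM of each gene on its own.

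In bulk RNA, fewer cells in S phase and less of these RNAs per cell cannot be told apart. Of 8 cell cycle genes read beside this branch, PCNA had 8057 and 5458 reads (log2 fold change -0.80), CCNE2 1941 and 872 reads (-1.39), and CDK1 and CCNB1 were at -0.77 and -0.56. MCM5, MCM2 and TOP2A were at -0.12, -0.05 and -0.0038, and MKI67 was higher, with 2288 and 5024 reads (0.90). E2F1, a regulator of S phase genes, had 1002 and 949 reads, at -0.32 on the log2 scale. The median of the 8 cell cycle genes was -0.34. The intervals of 5 lay wholly below no change (35.2% of genes with at least 385 reads), that of MKI67 lay above it, and those of MCM2 and TOP2A included it. Their part in the lower deoxynucleotide genes was not tested.

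TYMS overlaps ENOSF1, a gene on the opposite strand that had 330 reads in Vector against 608 in the library labelled OE-UNC5B. Use of strand in the counting is not stated, so reads of both genes cannot be told apart where they overlap. The ratio of TYMS to ENOSF1 reads was 7.56 in Vector against 3.12 in the other library, a log2 difference of -1.28 (interval -1.49 to -1.06). With the reads of both genes summed, the log2 fold change was -0.41 (interval -0.49 to -0.33), still lower but short of 1.5-fold. The window around the RefSeq start of TYMS, from 250 bases before to 50 bases after it, holds the letters TTTCCCGC, a motif of E2F factors, on the reverse strand. It is shown because TYMS is the one deoxynucleotide gene whose window holds such a match (TTTCCCGC, TTTGGCGC, TTTCGCGC or TTTGCCGC on either strand). Of all 35116 RefSeq windows, where a gene can have several, 3.31% hold one. The match, in capitals, begins 39 bases before the RefSeq start, and the stretch is chr18:657603-657632 on the plus strand of GRCh38.p14 (RefSeq). The start in the deposited table, chr18:657604, is 49 bases from the RefSeq start, and by it the match lies within the gene.
TYMS: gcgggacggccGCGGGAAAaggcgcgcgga

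The 12 genes of purine synthesis together had 25306 reads in Vector against 31467 in the library labelled OE-UNC5B, or 1876 and 1979 CPM, a log2 fold change of 0.08 for the sum (interval 0.05 to 0.10), or 0.13 with library totals and 0.11 with DESeq2 size factors. The sign of this sum rested on PAICS. Without it the other 11 genes had 21965 and 24869 reads, a log2 fold change of -0.06 (interval -0.08 to -0.03), which was -0.01 with library totals and -0.02 with DESeq2 size factors. PAICS, a bifunctional enzyme of the middle of the pathway (AIR carboxylase and SAICAR synthetase), had 3341 reads in Vector against 6598 in the library labelled OE-UNC5B. Its level was 1.68-fold higher, at 0.74 on the log2 scale (interval 0.68 to 0.81). It was the sole gene of the 36 past 1.5-fold on the higher side, and it stayed so in each of the 7 alternatives. The filter settings among these could not change its value.

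PPAT, the amidotransferase that commits PRPP to the purine pathway, lies beside PAICS in the opposite orientation. It had 830 and 1142 reads, a log2 fold change of 0.22 (interval 0.09 to 0.35). Both neighbours were higher, but by different amounts: the ratio of PAICS to PPAT reads was 4.03 in Vector against 5.78 in the library labelled OE-UNC5B, a log2 difference of 0.52 (interval 0.38 to 0.67). By the coordinates of the deposited table, 125 bases separate the starts of both genes, of which 76% are G or C. This stretch is shown because it faces both starts, PPAT to its left and PAICS to its right (chr4:56435616-56435740, plus strand, GRCh38). It holds no match to the E-box CACGTG, the E2F letters, CCAAT, the NRF1 motif or the ATF4 composite motif TGATGNAAT on either strand.
PPAT to PAICS: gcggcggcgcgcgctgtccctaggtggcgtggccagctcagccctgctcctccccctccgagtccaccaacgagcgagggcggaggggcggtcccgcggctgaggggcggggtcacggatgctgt

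ADSL, which acts in the common pathway and again in making AMP, had 1306 and 1780 reads, a log2 fold change of 0.21 (interval 0.11 to 0.31). ADSS2, which turns IMP towards AMP, had 1435 and 1941 reads, at 0.20 on the log2 scale (interval 0.10 to 0.30). ADSS2 shares its strand with AL645465.1, a gene with 99 reads in Vector against 1 in the other library, and with those reads added the value was 0.10. GART, a trifunctional enzyme of the early steps, had 2901 and 3590 reads, and its log2 fold change of 0.07 had an interval of -0.0006 to 0.14. SON overlaps GART on the opposite strand (3423 and 4340 reads), and with its reads added the value was 0.09 (interval 0.04 to 0.14). On each gene's own reads, the intervals of 4 of the 12 purine genes (PAICS, PPAT, ADSL and ADSS2) lay above no change and those of 5 below it, shares near the 33.5% and 35.2% of genes of the same depth.

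PFAS, the glutamine-using enzyme between the steps of GART, had 2034 and 2295 reads and a log2 fold change of -0.06 (interval -0.15 to 0.02). ATIC, which closes the purine ring to IMP, had 2644 and 2729 reads, at -0.19 (interval -0.27 to -0.11). The step after PAICS and ADSL was therefore slightly lower while both of those were higher. IMPDH2, the main IMP dehydrogenase of dividing cells and a target of mycophenolic acid, had 4943 and 5562 reads, at -0.07 (interval -0.12 to -0.01). Its isoenzyme IMPDH1 had 965 and 1075 reads, at -0.08 (interval -0.21 to 0.05). GMPS, the next enzyme on the way to GMP, had 2618 and 2692 reads, at -0.20 (interval -0.27 to -0.12). The GMP arm was thus flat to slightly lower and the AMP arm, ADSS2 and ADSL, slightly higher.

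The synthetases that make PRPP, the ribose phosphate donor for purines, pyrimidines and salvage alike, were both lower. PRPS1 had 1106 reads in Vector against 1061 in the library labelled OE-UNC5B, a log2 fold change of -0.30 (interval -0.42 to -0.17). PRPS2 had 1183 and 1002 reads, at -0.48 (interval -0.60 to -0.35). The ratio of PRPS1 to PRPS2 reads was 0.935 in Vector against 1.06 in the other library, a log2 change of 0.18 with an interval that starts at 0.0053.

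Pyrimidine synthesis followed no single direction, and its genes summed to 524 CPM in Vector against 514 in the library labelled OE-UNC5B (log2 fold change -0.03, interval -0.07 to 0.02). CAD, the trifunctional protein that carries out the opening steps, had 3086 and 4193 reads and was slightly higher, at 0.21 on the log2 scale (interval 0.14 to 0.27). The branch as a whole had 7075 and 8176 reads, and the other 4 genes had values below 0. The nearly flat sum thus rested on CAD. UMPS, which completes UMP, had 1024 and 858 reads and was lower, at -0.49 (interval -0.62 to -0.36). The gene at the start of the route and the gene at its end thus differed in direction. DHODH, the mitochondrial enzyme between them and a drug target in AML, had 336 and 352 reads, at -0.17 (interval -0.39 to 0.05). CTPS1, the CTP synthetase of proliferating lymphoid cells, had 2433 and 2584 reads, at -0.15 (interval -0.23 to -0.07). CTPS2 had 196 and 189 reads, the fewest of the list, at -0.29 (interval -0.59 to 0.0062).

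Salvage genes were lower for the most part, with 10280 reads in Vector against 9380 in the library labelled OE-UNC5B over 8 genes (762 and 590 CPM, log2 fold change -0.37, interval -0.41 to -0.33). Values were below 0 for 6 of the 8 genes, as for 51.0% of genes with at least 385 reads. The intervals of 5 lay wholly below no change, against 35.2% of those genes. DCK is among these 5, with the limit given below. TK1, the cytosolic thymidine kinase of S phase cells, had 1646 and 1105 reads. Its level was 1.76-fold lower, at -0.81 on the log2 scale (interval -0.92 to -0.70). TK2, the mitochondrial thymidine kinase, which does not depend on the cell cycle, had 438 and 667 reads and was higher, at 0.37 (interval 0.19 to 0.55). The ratio of TK1 to TK2 reads was 3.76 in Vector against 1.66 in the library labelled OE-UNC5B, a log2 change of -1.18 (interval -1.39 to -0.97). This change needs no scaling between libraries.

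PNP, purine nucleoside phosphorylase, whose loss harms T cells, had 2489 and 1906 reads and was 1.54-fold lower, at -0.62 on the log2 scale (interval -0.71 to -0.54). HPRT1 and APRT, the phosphoribosyltransferases that return hypoxanthine, guanine and adenine to nucleotides, were lower by similar amounts. HPRT1 had 1038 and 879 reads, at -0.48 (interval -0.61 to -0.35). APRT had 1510 and 1337 reads, at -0.41 (interval -0.52 to -0.31). The log2 change of the HPRT1 to APRT read ratio was -0.06 with an interval of -0.23 to 0.11. ADA, adenosine deaminase, had 394 and 440 reads, at -0.08 (interval -0.28 to 0.12). UCK2, the uridine-cytidine kinase common in tumour cells, had 1717 and 2066 reads, at 0.03 (interval -0.06 to 0.12), and at -0.10 with the reads of TMCO1, which overlaps it on the opposite strand, added.

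DCK, the deoxycytidine kinase that also activates cytarabine, had 1048 reads in Vector against 980 in the library labelled OE-UNC5B, a log2 fold change of -0.33 (interval -0.46 to -0.21). MOB1B overlaps DCK on the same strand and had 399 and 742 reads. With its reads added the value was 0.01 (interval -0.09 to 0.12), which is a bound, since how many of the MOB1B reads lie in the overlap was not measured.

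Among the nucleotide kinases, NME1 had 2284 reads in Vector against 1287 in the library labelled OE-UNC5B. Its level was 2.09-fold lower, at -1.06 on the log2 scale (interval -1.16 to -0.97), the lowest value of the 36 genes. NME1 and NME2 are nucleoside diphosphate kinases that add the last phosphate of most nucleoside triphosphates, and they lie one after the other on chromosome 17. NME2 had 4264 and 4187 reads, at -0.26 (interval -0.33 to -0.20), and the read ratio of NME1 to NME2 went from 0.536 to 0.307, a log2 change of -0.80 (interval -0.92 to -0.68). CMPK1, the UMP and CMP kinase, had 2179 and 2650 reads, at 0.05 (interval -0.04 to 0.13). GUK1, the guanylate kinase, had 361 and 344 reads, at -0.31 (interval -0.52 to -0.09).

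A readthrough gene, NME1-NME2, covers both NME genes and had 1721 reads in Vector against 1422 in the library labelled OE-UNC5B (log2 fold change -0.51, interval -0.61 to -0.41). The counting could split reads among these 3 genes. In GENCODE 44 transcripts, 15.8% of the 100-base runs of NME1 and 23.6% of those of NME2 also occur in the readthrough gene, whereas 0 runs of NME1 occur in NME2. Their coding sequences of 459 bases each are 80.8% identical, and the longest identical run has 23 bases, at positions 223 to 245 counted from the start codon of NME1. It is shown as the longest stretch without a mismatch between the coding sequences. Untranslated regions were not part of that comparison, and how reads were assigned was not tested.
NME1 and NME2: gccatggtctgggaggggctgaa

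With the readthrough reads added to NME1, its log2 fold change was -0.80 (interval -0.87 to -0.73), and NME2 with those reads was at -0.33. All 3 genes together had 8269 and 6896 reads, a 1.41-fold lower level (log2 fold change -0.50, interval -0.55 to -0.45). The lower value of NME1 thus held without and with the readthrough reads, at different sizes.

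**Figure D2:**
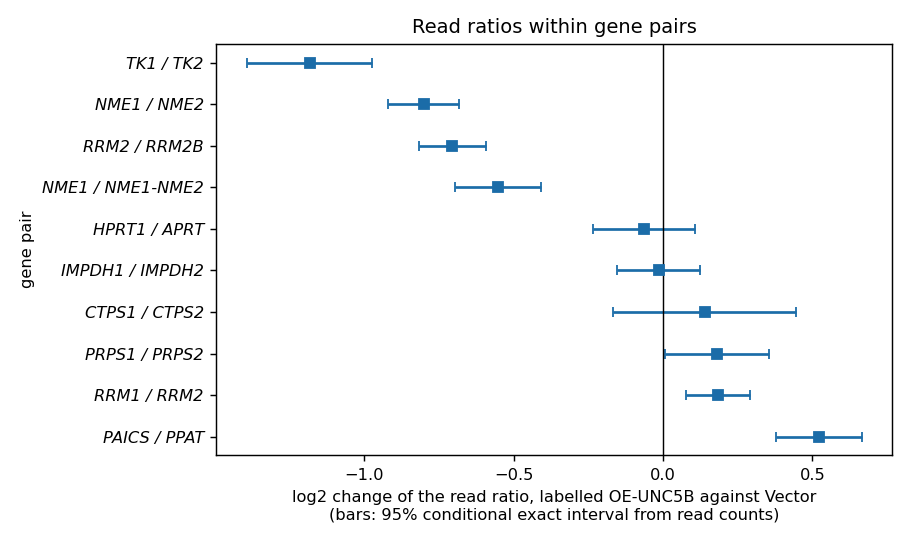
Log2 change of the read ratio within 10 pairs of genes of related function (x axis, library labelled OE-UNC5B against Vector), with 95% conditional exact intervals from the reads, which need no scaling between libraries. Of the pairs drawn, which leave out TYMS and ENOSF1 at -1.28, TK1 against TK2 is lowest at -1.18 and PAICS against PPAT highest at 0.52, while the intervals of HPRT1 against APRT, IMPDH1 against IMPDH2 and CTPS1 against CTPS2 include 0.

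The isoenzyme pairs differed in whether their read ratio stayed the same. IMPDH1 to IMPDH2 stood at a read ratio of 0.195 in Vector against 0.193 in the library labelled OE-UNC5B, a log2 change of -0.01 (interval -0.15 to 0.12). The log2 difference of CTPS1 to CTPS2 was 0.14, with an interval of -0.17 to 0.45 that leaves room for a shift either way. RRM2B is the p53-regulated subunit that replaces RRM2 outside S phase, and is not among the 36 genes. It had 2440 and 2844 reads, a log2 fold change of -0.02 (interval -0.09 to 0.06). The ratio of RRM2 to RRM2B reads therefore went from 1.23 to 0.755, a log2 change of -0.70 (interval -0.82 to -0.59).

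Levels between genes were compared per length, as reads per kilobase of exon per 1000000 scaled reads (RPKM), with exon lengths from GENCODE 44. Of the 36 genes, 32 lay above the median level of tested genes and 14 above the 90th percentile. NME2 had the highest level, 127 RPKM in Vector against 106 in the other library. TYMS (76.4 and 49.3), IMPDH2 (71.5 and 68.3), TK1 (66.1 and 37.7), RRM1 (62.7 and 43.2) and APRT (62.3 and 46.8) followed in Vector. With TYMS lower, IMPDH2 stood second in the library labelled OE-UNC5B, and PAICS moved from 33.0 to 55.2 RPKM and stood next after it. The lowest levels were those of ADA (2.40 and 2.27), CTPS2 (2.63 and 2.15), TK2 (3.14 and 4.06) and DHODH (3.60 and 3.20).

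The deposited FPKM values order the genes differently, because the ratio of the length they imply to the GENCODE 44 exon length varied from 0.363 to 3.66 among the 36 genes, with a median of 1.49. The implied length was longer than the exons in 31 genes and shorter in 5, and it exceeded the whole span of the gene in 4. For GUK1 it was 17295 bases, where the gene spans 9023 bases, so its FPKM of 1.52 in Vector stands beside 5.66 RPKM. The GENCODE 44 lengths have limits too. Those of RRM2 (9153 bases) and IMPDH2 (5123 bases) exceed the deposited spans of 9092 and 5084 bases. For ADA the GENCODE 44 length is 12177 bases and the implied length 4415. By FPKM in Vector, ADA (6.51) stood above GUK1, TK2, CTPS2 and DHODH, so its low place depends on the length used. Comparisons of 1 gene between libraries are not touched by this, since both libraries share the length.

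**Figure D3:**
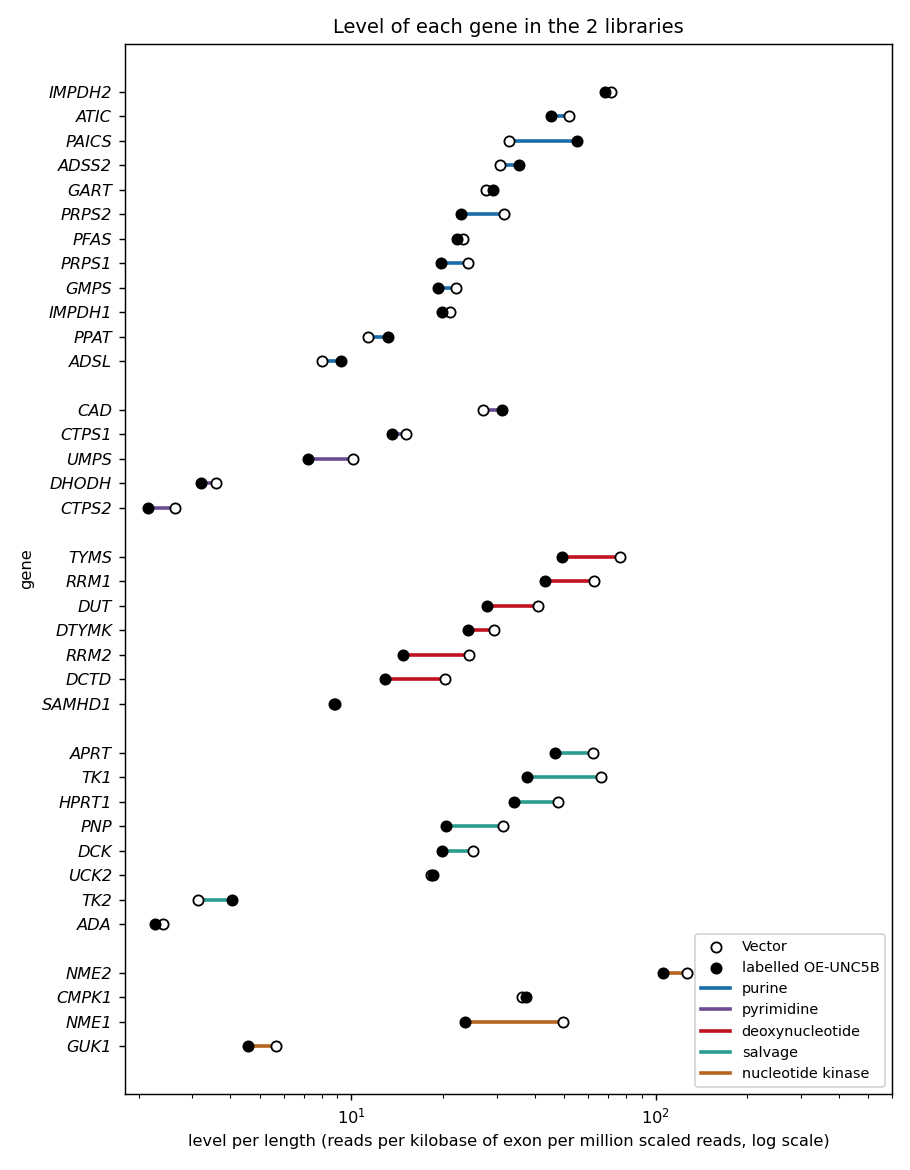
Level of each gene per length (x axis, RPKM on a log scale) in Vector (open circles) and its counterpart labelled OE-UNC5B (filled circles), 1 library each, by branch. NME2 has the highest level, and the filled circle of PAICS lies to the right of its open circle. The deoxynucleotide genes have theirs to the left, SAMHD1 by very little (8.85 in Vector against 8.75).

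The other genes of nucleotide metabolism were read from a list of 51 transporters, kinases, nucleotidases and breakdown enzymes, of which 40 were tested. Their median log2 fold change was -0.09, with 4 genes lower and 1 higher by 1.5-fold, shares below those of all tested genes. SLC29A1, the equilibrative transporter ENT1 that carries nucleosides and cytarabine into cells, had 2442 reads in Vector against 1380 in the library labelled OE-UNC5B. It was 2.09-fold lower, at -1.06 on the log2 scale (interval -1.16 to -0.96). NME4, a mitochondrial relative of NME1, had 812 and 578 reads, at -0.73, and TYMP, thymidine phosphorylase, had 1735 and 1292 reads, at -0.66. AMPD3, an AMP deaminase, had 74 and 49 reads, at -0.83 (interval -1.38 to -0.29). The higher gene was UPRT, a relative of uracil phosphoribosyltransferases, with 81 and 204 reads, at 1.09 (interval 0.72 to 1.49).

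Genes that handle cytarabine were set side by side because the study treated AML cells with that drug in other experiments, and they were chosen after their values were seen. SLC29A1 and DCK, which import and phosphorylate it, had log2 fold changes of -1.06 and -0.33, the latter with the limit given above. The other equilibrative nucleoside transporters differed less, with SLC29A2 at 739 and 799 reads (-0.12, interval -0.27 to 0.02) and SLC29A3 at 81 and 105 reads (0.14, interval -0.29 to 0.57). DCTD, which can deaminate the monophosphate of the drug, was at -0.65. CMPK1, which adds the next phosphate, was at 0.05. NT5C2, a nucleotidase that removes phosphate, had 1561 and 2278 reads and was at 0.31 (interval 0.21 to 0.40). SAMHD1, which breaks down the triphosphate, was at -0.02, with a sign that turned with the scaling. CDA, which inactivates the drug, had 5 and 1 reads, too few for a fold. The RNA samples came from cultures for which no cytarabine is stated. In its drug experiments, the study reported that overexpressed UNC5B made Molm13 and THP-1 cells more sensitive to cytarabine. How the RNA values relate to that result was not tested.

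A list of 33 genes for serine, glycine, folate one-carbon units, aspartate, glutamine, pentose phosphates and reducing power had 32 tested genes, of which 9 were higher and 1 lower by 1.5-fold, beside 12.9% and 12.5% of all tested genes. Earlier results from these libraries had shown serine synthesis genes to be higher, so this is not independent evidence of direction. The median was 0.0019, because 16 of the 32 genes were below 0 and 16 above it. MTHFD2, the mitochondrial enzyme on the way to the formate that purine synthesis uses, had 3080 and 10312 reads, a 2.84-fold higher level (log2 fold change 1.51, interval 1.45 to 1.56). SHMT2, which splits serine in mitochondria, had 1851 and 4213 reads, at 0.95. Their cytosolic counterparts were lower, with SHMT1 at 542 and 440 reads (-0.54) and MTHFD1, which loads formate for GART and ATIC, at 4342 and 4245 reads (-0.27, interval -0.33 to -0.21).

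ALDH1L2, MTHFD2L, PHGDH, PSAT1, PSPH and ASNS, genes of folate oxidation, serine synthesis and asparagine synthesis, were higher by 2.29-fold to 4.75-fold. RPE, an epimerase of the pentose phosphate pathway, had 470 and 1145 reads and was 2.07-fold higher, whereas TALDO1, transaldolase of the same pathway, had 3904 and 2965 reads and was 1.55-fold lower. Of the purine genes that take up one-carbon units, GART and ATIC were at 0.07 and -0.19. ATF4, a regulator of serine and mitochondrial folate genes, had 4993 and 10509 reads, at 0.84 (interval 0.79 to 0.89), and MYC, a regulator of nucleotide synthesis genes, had 345 and 451 reads, at 0.15 (interval -0.06 to 0.36).

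**Figure D4:**
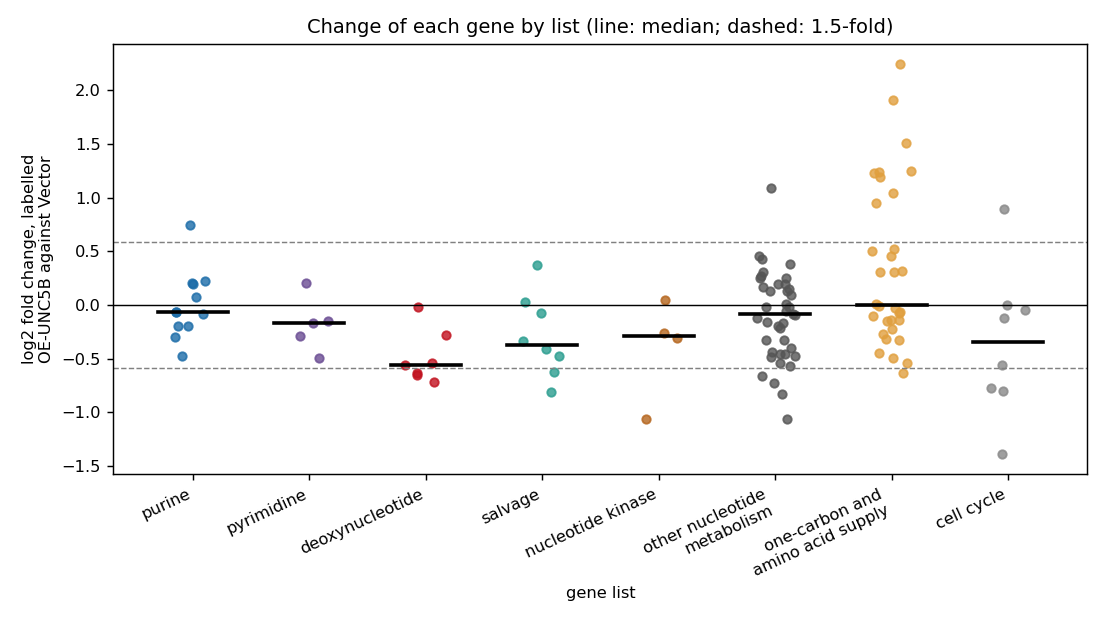
Log2 fold change of each tested gene (y axis, library labelled OE-UNC5B against Vector) in the 5 branches, the other nucleotide metabolism genes, the supply genes and 8 cell cycle genes, with the median of each list as a line and dashed lines at 1.5-fold. The deoxynucleotide median lies at -0.55, while the supply genes spread upwards to 2.25 around a median near 0.

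RefSeq start windows were found for 34 of the 36 genes, and the E-box CACGTG, the motif of MYC and related factors, occurred in 6 of them (17.6%, against 7.26% of all 35116 windows). The E2F letters occurred in 3 (8.82% against 3.31%) and CCAAT in 11 (32.4% against 34.6%). The NRF1 motif and the ATF4 composite motif occurred in 0 of the 34 windows, against 1.24% and 0.991% of all. These shares are not like for like. Each member gave 1 window, the nearest to its deposited start, while the background holds all windows, several for some genes. Whether the motifs were more frequent among the members was not tested. The E-box windows were those of PPAT, PAICS, ATIC, DHODH, DCK and NME1, which include PAICS, the highest of the 36 fold changes, and NME1, the lowest. The E-box of PPAT and PAICS is 1 site, chr4:56435792-56435797, which lies 41 bases after the RefSeq start of PAICS. That start is 11 bases from the one in the deposited table. The stretches below show these sites with the match in capitals, each on the strand of its gene in GRCh38.p14, to set PAICS, which was higher, beside NME1, which was lower, and DCK, whose sign turned when the reads of MOB1B were added.
PAICS (chr4:56435772-56435801, plus strand): ctggaaagctgtatttgctgCACGTGgaaa
NME1 (chr17:51153579-51153608, plus strand): caagtgctgcgaacCACGTGggtcccgggc
DCK (chr4:70993521-70993550, plus strand): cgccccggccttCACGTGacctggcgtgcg
A match describes the letters of these windows only, and PAICS and NME1, which both have one, differed in direction.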

How the data were processed

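RNA-seq of MOLM-13 cells comprised 2 libraries, Vector and OE-UNC5B. Per the labels (the submitters' processing notes), bcl2fastq 2.19, HISAT2 2.0.4, StringTie 1.3.0 and GRCh38 were used, while the counting tool, annotation release and strand setting are not given in the sources used here. The main values were unnormalized gene-level read counts as deposited. FPKM values from the authors were used as an alternative and to derive the length behind them.

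TMM factors (edgeR 4.0.16, R 4.3.3) were computed over the whole table, and genes whose 2 counts summed to 10 or more were kept. With 1 library per group, edgeR's quasi-likelihood test and any other test of the conditions could not be fitted, so a gene was called by a fold of 1.5 or 2. Intervals of 95% are Clopper-Pearson, or conditional exact for read ratios (scipy 1.17.1), and cover counting error only. The procedure was tested on simulated data drawn with counting error only, so that check could not cover the spread between cultures. GENCODE 44 gave exon lengths for 98.8% of tested genes and for all 36 members, each on the same chromosome and strand as in the deposited table. The start and end were the same for 10 of the 36. Motifs were searched in RefSeq windows on both strands, taking the window nearest to the start in the deposited table.

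The members, branches, lists and folds were chosen with earlier results of these data known. All members were to be named, as were genes of the other lists past 1.5-fold with at least 50 reads. In place of the main settings, 7 alternatives were tried. These used library totals or DESeq2 1.42.0 size factors, added 2 reads, dropped the filter or raised it to 50 reads, or took FPKM plus 0.1 or plus 1 where 1 library reached an FPKM of 1. Adding the reads of overlapping genes, leaving PAICS out of the purine sum and the background at the depth of the members were chosen after seeing the data. Other experiments of the study were not analysed here.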

Additional observations from a re-analysis of the deposited data

How the results depend on the processing

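The median log2 fold change stayed below 0 for the whole list and for each of the 5 branches under all 7 alternatives to scaling, unit, added reads and filter, between -0.23 and -0.15 for the list, between -0.55 and -0.48 for the deoxynucleotide genes and between -0.06 and -0.02 for the purine genes, close to no change. Of 252 values of single members under these alternatives, 250 stayed inside the counting interval and 248 kept their sign, the rest being SAMHD1. These 252 values are not independent checks. Both filter settings could not change any member's value or these medians, because each member had at least 385 reads. Library totals and DESeq2 size factors each shifted all members by the same amount. With library totals, 4 members were lower by 1.5-fold. With FPKM and 1 added, a setting that also differs in scaling and filter, 3 members were lower by 1.5-fold and 0 by 2-fold. At that setting 1 other nucleotide gene and 0 supply genes were lower by 1.5-fold, and with 0.1 added 0 supply genes were. Without a filter, which adds genes with few reads, 2 other nucleotide genes were higher and 8 lower. No paired analysis was possible because each group held 1 library, so leaving out a replicate was not possible either. Adding the reads of overlapping genes moved TYMS, DCK, UCK2, NME1 and NME2 outside their counting intervals, and turned the signs of DCK and UCK2. The summed purine reads were at -0.058 on the log2 scale without PAICS, against 0.077 with it and 0.125 with it under library totals. Variation between cultures could not be measured at any depth.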
